A study of Mus musculus with 5 samples.

Results

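The genes that encode the proteins of the cytosolic ribosome were followed in GL261 cells, a mouse glioma line, after sodium propionate or sodium chloride. Members were the genes named Rpl or Rps with a number and at most 1 further letter (a, x, y or l), together with Rplp0, Rplp1, Rplp2 and Rpsa. The rule found 83 of 55486 annotated genes, of which 51 are named for the large subunit and 32 for the small subunit. By annotation 80 of them are protein-coding. The other 3 (Rpl6l, Rpl32l and Rps4l) are processed pseudogenes, of which Rpl6l and Rpl32l were tested and are counted with the large subunit genes. The cells had been exposed for 24 h to propionate, one of the short-chain fatty acids of the gut flora, or to sodium chloride as the control salt, each labelled as 1 uM, a unit that could not be checked. Values came from 2 propionate libraries (replicates 2 and 3) and 3 chloride libraries (replicates 1, 2 and 3), and propionate replicate 1 was not analysed here. Whether the libraries stem from separate cultures is not stated in the labels, so p-values reflect the spread among these 5 libraries alone, and that spread may be technical.

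Each ribosome is built from a small subunit that decodes the messenger RNA and a large subunit that forms the peptide bond, and their proteins are needed in near equal numbers. The messenger RNAs of nearly all of these proteins begin with a C followed by a run of pyrimidines, the terminal oligopyrimidine start, through which their translation follows the activity of the mTOR kinase and the binding protein Larp1. Such control acts on translation and need not show in the RNA levels measured here. Several ribosomal proteins also act outside the ribosome, such as Rpl5 and Rpl11, which bind Mdm2, the ubiquitin ligase that degrades p53.

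The start sites of 61 members were found in the RefSeq promoter table of build GRCm38.p6. A C at the annotated start with at least 4 pyrimidines after it, read on the strand of the gene, was found in 14 of 61 members (23.0%), against 799 of 26964 other genes (2.96%). Within 10 bases of the annotated start the share was 63.9% for members and 34.3% for other genes. The 30 bases below begin 10 bases before the annotated start, with the C and its pyrimidine run in capitals where it lies at that start. They are shown for Rps18 and Rps4x, among the most abundant members, for Rps10 and Rps24, the members with the smallest p-values, and for Rpl38 and Rpl15, whose log2 changes turned sign between ways of summing a gene (in aligned bases for Rpl38, with pseudogenes added for Rpl15).
Rps18: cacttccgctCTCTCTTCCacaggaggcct
Rps4x: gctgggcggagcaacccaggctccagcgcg
Rps10: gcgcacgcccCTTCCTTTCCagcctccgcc
Rps24: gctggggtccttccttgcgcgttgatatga
Rpl38: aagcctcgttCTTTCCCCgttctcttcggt
Rpl15: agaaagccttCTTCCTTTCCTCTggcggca
The windows lie at chr17:33955646-33955675 (minus strand) for Rps18, chrX:102189372-102189401 (minus strand) for Rps4x, chr17:27635225-27635254 (minus strand) for Rps10, chr14:24490668-24490697 (plus strand) for Rps24, chr11:114668570-114668599 (plus strand) for Rpl38 and chr14:18270967-18270996 (minus strand) for Rpl15. In Rps24 a run of C and T spans the annotated start without a C at that base, and the window of Rps4x holds no such run at its start. Members with and without the C and run at the annotated start had median log2 changes of 0.025 (14 tested) and 0.048 (44 tested). The presence of these letters is a description of the sequence, and start sites were not measured in these libraries.

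Libraries held 7.19 to 7.63 Gb of aligned sequence, and 1 TPM (a level corrected for gene length and library size) stood for a mean per-base coverage of 4.73 to 4.99. The RNA was total RNA, and protein-coding genes took 45.2% and 50.3% of TPM in the propionate libraries, against 49.1%, 47.7% and 46.7% in the chloride libraries. The filament gene Vim, at 5472 to 7073 TPM, and Nes, Cd44 and Sox2, genes of neural progenitors and glioma cells, were present in all libraries, while the oligodendrocyte factor Olig2 stayed under 1 TPM. Of the 7 tested genes of that list, the receptor gene Pdgfra was called higher (adjusted p = 0.00719), and the glial gene S100b was lower without passing the threshold (log2 change -0.36, adjusted p = 0.0936). Of 8 macrophage and microglia markers, 1 (Cd68) passed the filter on low values. Their summed level was 11.03 and 13.6 TPM in propionate, against 8.08, 7.48 and 6.69 TPM in chloride, mostly from Cd68. Itgam was at 0 in every library and Ptprc, Aif1, Cx3cr1 and P2ry12 were under 0.1 TPM. Tmem119, under the filter, had 0.617 and 1.35 TPM in propionate, against 0.137, 0.092 and 0.113 TPM in chloride. Csf1r, also under the filter, had 0.276 and 0.063 TPM in propionate, against 0.303, 0.286 and 0.306 TPM in chloride. Endothelial and T cell markers summed to under 0.3 TPM in each library. Of 4 pericyte and fibroblast markers, 2 passed the filter. The 4 summed to 8.91 and 11.1 TPM in propionate, against 4.29, 4.04 and 3.16 TPM in chloride, mostly from the collagen gene Col1a1, which was called higher (log2 change 1.10, adjusted p = 0.0241). The adjusted p-values of Pdgfrb and Cd68 were 0.0868 and 0.0594, and the part of either marker list in the results was not tested.

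No cytosolic ribosomal protein gene differed between propionate and chloride past the threshold. Genes with a mean of at least 1 TPM over the 5 libraries (13878) were tested with limma on log2(TPM + 1), and a call was a Benjamini-Hochberg adjusted p under 0.05 over all of them. Of 79 tested members (48 large, 31 small), 0 were called higher and 0 lower, where 1.31% of all tested genes were called higher and 0.504% lower (1.82% in either direction). Before adjustment, at p under 0.05, 2 members were higher (Rps24 and Rps10) and 0 lower, against a background of 7.93% higher and 8.9% lower. In aligned bases per gene in place of TPM, 0 members were called where 5.71% of all tested genes were called in either direction, and 3 members (Rps10, Rpl38 and Rpl35a) had p under 0.05 before adjustment, where 21.6% of all tested genes did. With sums over reference transcripts only, 0 of 78 members were called, where 0.0824% of all genes were. These values had small errors: the median SE of the log2 change was 0.083 over the tested members, against 0.127 over all tested genes. Over the 828 tested genes with a mean of at least 100 TPM it was 0.095, so abundant genes had small errors in general. In bulk RNA, fewer cells and less RNA per cell cannot be told apart, and a shared shift of all genes does not show in TPM.

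The members lay slightly above the other genes in propionate. Their median log2 change was 0.038, against a median of -0.026 over all tested genes and of 0.00063 over the 828 tested genes with a mean of at least 100 TPM. Of 79 members, 57 (72.2%) had a change above 0, where 44.5% of all tested genes and 50.4% of those 828 genes did. Both propionate libraries were above all 3 chloride libraries for 16 members (20.3%) and below them for 2 (2.53%), Rplp1 and Rpl27a. The shares over all tested genes were 14.8% above and 19.7% below. Over the 828 genes they were 17.5% above, near the members' share, and 18.8% below. Among the 16 were Rpl11, Rpl22, Rpl23, Rpl27, Rpl34, Rpl35, Rpl35a, Rpl36, Rpl36a, Rpl37 and Rpl39 of the large subunit and Rps10, Rps24, Rps27 and Rps28 of the small subunit. The members share libraries and scaling, so they are not independent of each other, and no p is given over them.

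**Figure D1:**
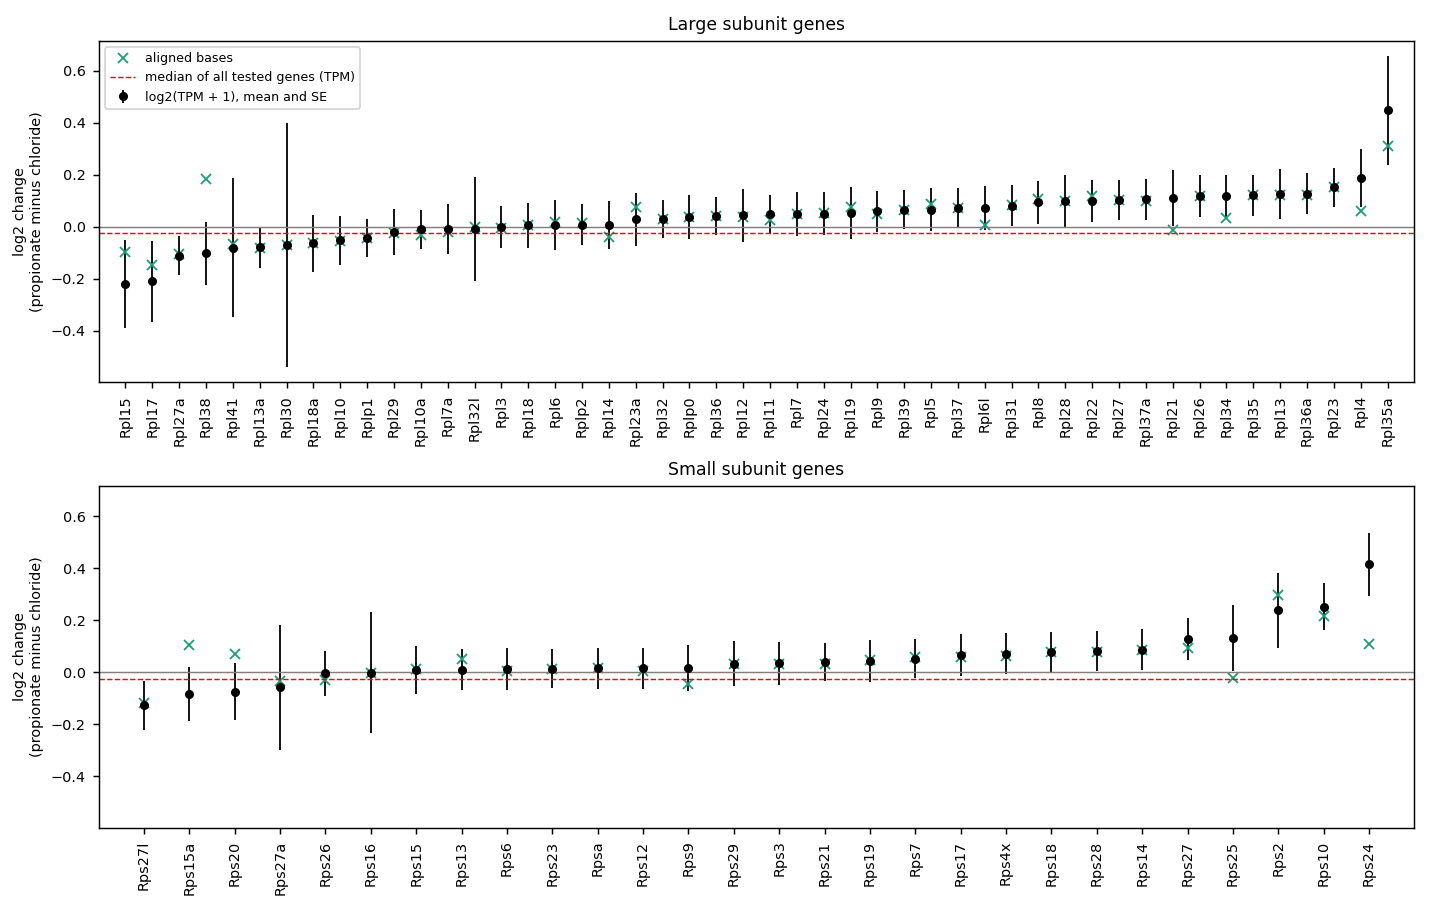
Difference between propionate and chloride for 48 tested large subunit genes (top) and 28 of 31 tested small subunit genes (bottom), as the log2 change with its SE (black) and as the log2 change in aligned bases (green crosses), with the median of all tested genes as a dashed line. Most genes lie between 0 and 0.15 and none passed the threshold, and for Rpl38, Rps24, Rps25 and a few others the 2 measures lie apart.

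Large and small subunit genes had similar medians. The median log2 change was 0.045 for the 48 large subunit genes and 0.033 for the 31 small subunit genes, a difference of 0.012. Above 0 were 34 of 48 large and 23 of 31 small subunit genes. Large subunit genes summed to 44767 and 47954 TPM in the propionate libraries, against 45479.6, 44510 and 45074 TPM in the chloride libraries. Small subunit genes summed to 36854 and 39259 TPM in the propionate libraries, against 36399, 35510.1 and 36846 TPM in the chloride libraries. In both subunits propionate replicate 3 had the highest sum, while propionate replicate 2 was within the chloride range for the large subunit and just above it for the small subunit. The ratio of large to small subunit TPM was 1.215 and 1.221 in propionate, against 1.249, 1.253 and 1.223 in chloride, so both propionate ratios lay just below chloride. This leans the other way from the medians, where large lay above small by 0.012. Single abundant genes weigh on these sums. In propionate replicate 3, Rps2 had 2521 TPM, against 1730 to 1817 TPM in chloride, and Rpl41 had 1006 TPM, against 1350 to 1814 TPM. In propionate replicate 2, Rpl41 was above chloride at 2097 TPM. The ratio without such genes was not tested. In aligned bases the ratio was 1.421 and 1.417 in propionate, against 1.444, 1.452 and 1.419 in chloride, with overlapping groups.

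In TPM, the small upward shift lay in 1 of the 2 propionate libraries. Measured from the chloride mean, the tested members had a median deviation of -0.012 (propionate replicate 2) and 0.10 (propionate replicate 3), against 0.011, -0.020 and 0.016 in the chloride libraries. In propionate replicate 2, 38 of 79 members lay above the chloride mean, and in propionate replicate 3, 65 of 79. Over all tested genes the medians were -0.083 and 0.032 in the propionate libraries, against 0.036, 0.0023 and -0.041 in the chloride libraries. The members' share of TPM was 8.16% and 8.72% in propionate, against 8.19%, 8.002% and 8.19% in chloride. Relative to the TPM of protein-coding genes alone it came to 18.0% and 17.3% in propionate, against 16.7%, 16.8% and 17.5% in chloride, so that propionate replicate 2 then ranked highest. Set against the median of all tested genes in the same library, the members' median differed by 0.070 and 0.069 in the propionate libraries, against -0.025, -0.023 and 0.057 in the chloride libraries, so that chloride replicate 3 lay near the propionate libraries. Leaving out propionate replicate 2 gave a median change of 0.10 for the members, and leaving out propionate replicate 3 gave -0.012.

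**Figure D2:**
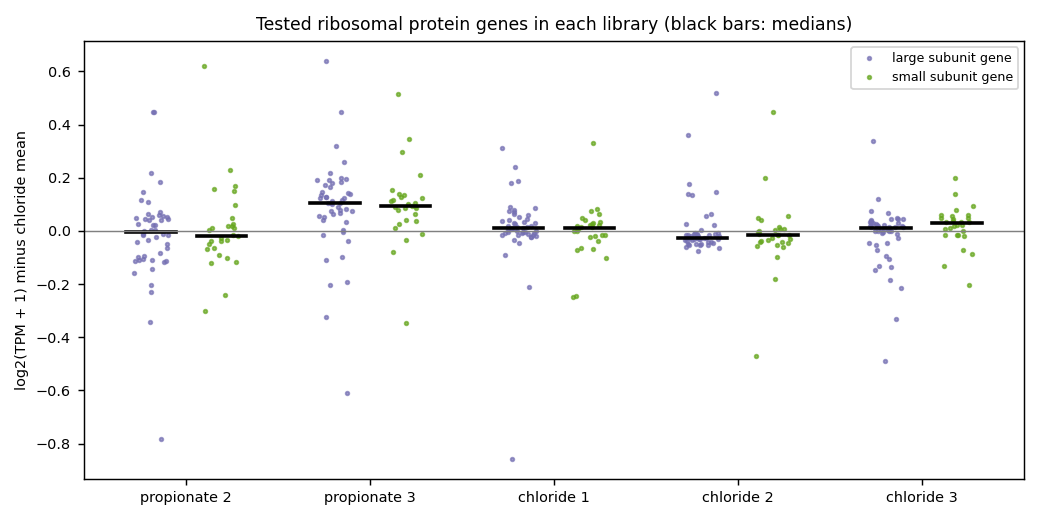
Deviation of 48 large and 28 small subunit genes from their means over the chloride libraries, in log2(TPM + 1), by library and subunit, with medians over the plotted genes as black bars. The medians lie near 0 in 4 libraries and near 0.1 in propionate replicate 3, for both subunits.

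Levels covered a wide range. The 76 most abundant of the 79 tested members averaged at least 100 TPM over the 5 libraries, and 38 averaged at least 1000 TPM. Rps4x, the X-linked protein of the small subunit body, had 2821 and 3086 TPM in the propionate libraries, against 2859, 2720.4 and 2854 TPM in the chloride libraries, with a log2 change of 0.070 ± 0.079 (SE) that did not pass the threshold (adjusted p = 0.713). Rps18, at the head of the small subunit beside the tRNA sites, had 2746 and 2947 TPM in the propionate libraries, against 2768, 2598 and 2717 TPM in the chloride libraries, a change of 0.079 ± 0.078 (SE). Rpl8, which lies near the peptidyl transferase centre, had 2453 and 2785 TPM in the propionate libraries, against 2460.1, 2402 and 2486 TPM in the chloride libraries. In all 3 genes propionate replicate 3 was highest and propionate replicate 2 was among the chloride libraries. The least abundant tested members in TPM were Rpl32l, Rpl21 and Rpl17. Rpl32l, a processed pseudogene by annotation, had 2.18 and 1.43 TPM in propionate, against 1.94, 2.07 and 1.41 TPM in chloride. The protein-coding genes Rpl21 and Rpl17 had means of 53.7 and 59.4 TPM over the 5 libraries. Most of their TPM lay on assembled transcripts of 3610 bases (Rpl21) and 2681 to 3786 bases (Rpl17). In aligned bases, which do not depend on transcript length, both genes were above Rps27l and Rpl6l in all 5 libraries.

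**Figure D3:**
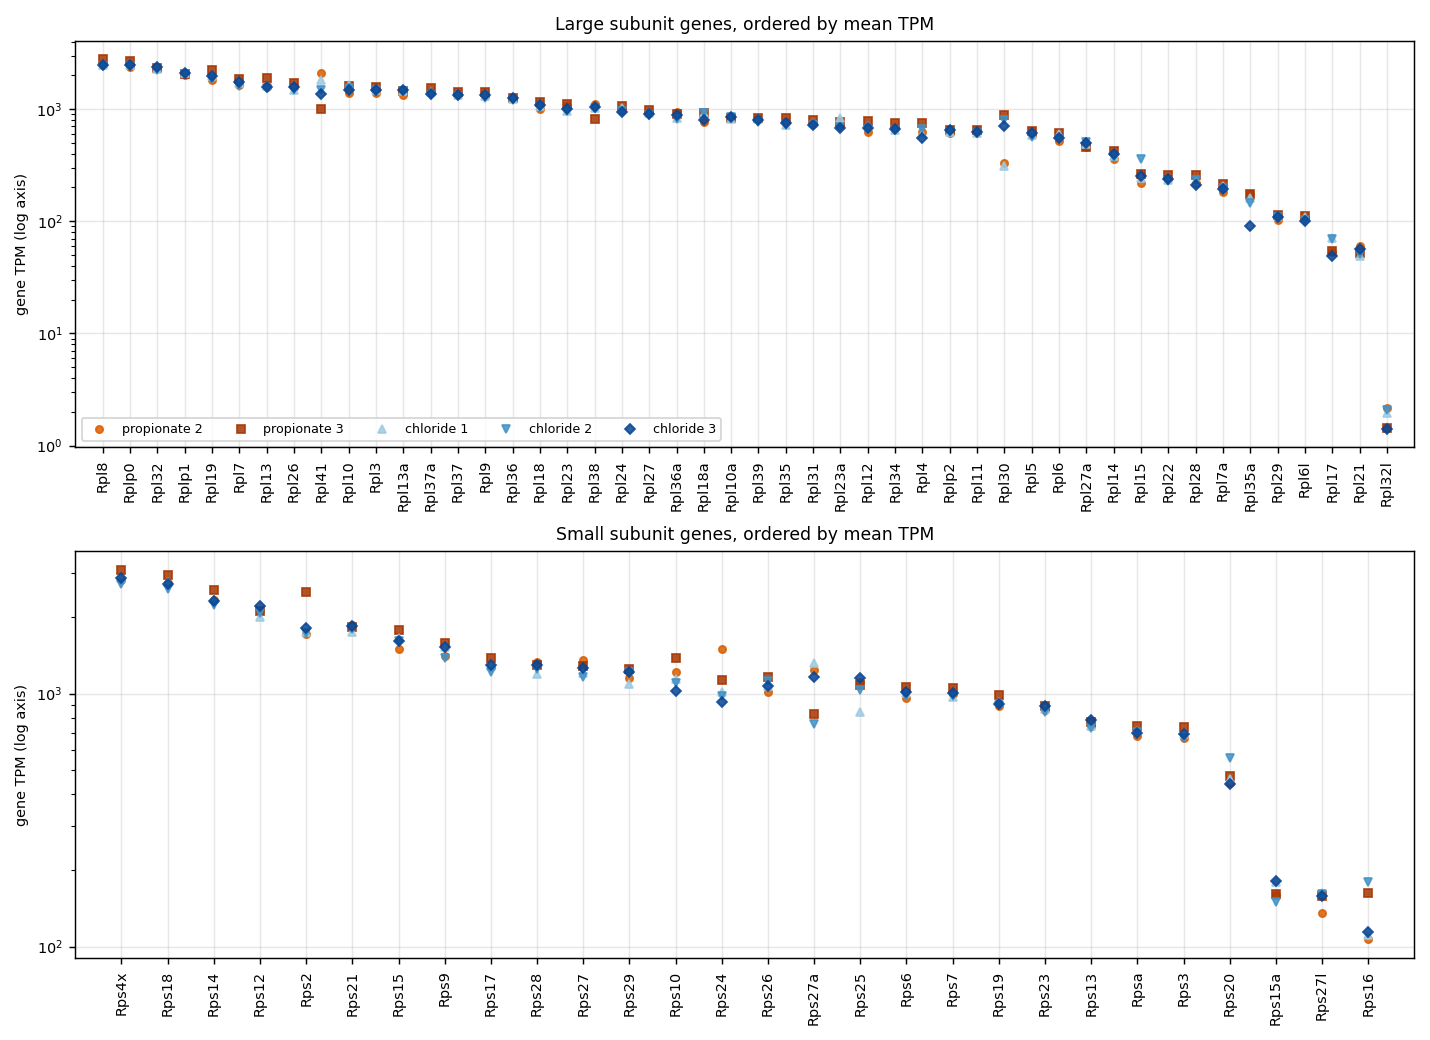
TPM in each of the 5 libraries on a log axis, for 48 large (top) and 28 small (bottom) subunit genes ordered by mean level, with propionate in orange and brown and chloride in blues. For most genes the 5 points overlap, and Rpl30, Rpl41, Rpl35a, Rps16, Rps27a and Rpl32l spread over 1.5-fold within a group.

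Among large subunit genes, the P stalk, which recruits the elongation factors, differed little. Rplp0, the base of the stalk, had 2350.3 and 2708 TPM in the propionate libraries, against 2489, 2424 and 2460.3 TPM in the chloride libraries. Rplp1, one of the acidic proteins that form its arm, had 2023 and 2038 TPM in the propionate libraries, against 2116, 2057 and 2109 TPM in the chloride libraries, so that both propionate values lay just below the chloride values, with a log2 change of -0.044 ± 0.072 (SE) and an adjusted p of 0.816. Rplp2, the partner of Rplp1, and Rpl12, which sits at the stalk base, differed by 0.0067 and 0.043 on the log2 scale, with overlapping groups. Of the 4 stalk genes 3 had values above 0, with a median of 0.022.

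The 5S particle joins Rpl5 and Rpl11 to 5S ribosomal RNA. Rpl5 had 590.2 and 642 TPM in the propionate libraries, against 588, 568 and 609 TPM in the chloride libraries, with overlapping groups. Rpl11 had 624 and 648 TPM in the propionate libraries, against 608, 617 and 621 TPM in the chloride libraries. Both propionate values of Rpl11 were above the chloride values, by a log2 change of 0.048 ± 0.075 (SE) with an adjusted p of 0.809.

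Near the peptidyl transferase centre lie Rpl3, Rpl8 and Rpl10. Rpl3 averaged 1476 ± 119 TPM in propionate (SD, n = 2) and 1474 ± 9.99 TPM in chloride (SD, n = 3), the closest pair of means among these genes. Rpl10, the last protein to join the large subunit, had 1391 and 1615 TPM in the propionate libraries, against 1650.0, 1541 and 1478 TPM in the chloride libraries, a log2 change of -0.052 ± 0.094 (SE). The groups of all 3 genes overlapped.

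Of 7 genes of the exit tunnel, through which the new protein chain leaves, 6 had a change above 0, with a median of 0.066. Rpl4, whose loop lines the tunnel, had 623 and 749 TPM in the propionate libraries, against 599, 659 and 548 TPM in the chloride libraries, a log2 change of 0.19 ± 0.11 (SE) with an adjusted p of 0.443. In aligned bases the change of Rpl4 was 0.058. Rpl35, at the mouth of the tunnel, had 764 and 831 TPM in the propionate libraries, against 725, 725 and 749 TPM in the chloride libraries. Rpl39, a small protein inside the tunnel, had 819.9 and 833 TPM in the propionate libraries, against 810.1, 761 and 799 TPM in the chloride libraries. For Rpl35 and Rpl39 the groups did not overlap, with log2 changes of 0.12 and 0.066 and adjusted p-values of 0.484 and 0.725. Rpl23a, where the signal recognition particle docks, and Rpl19 and Rpl31, also at the mouth, differed by 0.028, 0.052 and 0.081 on the log2 scale.

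Other large subunit genes with the largest positive log2 changes were Rpl35a, Rpl23, Rpl36a and Rpl13. Rpl23, which also binds Mdm2, had 1055 and 1117 TPM in the propionate libraries, against 964, 969 and 999 TPM in the chloride libraries. Both propionate libraries were above all chloride libraries, and the log2 change was 0.15 ± 0.076 (SE) with an adjusted p of 0.364. Rpl36a had 936 and 909 TPM in the propionate libraries, against 825, 821 and 891 TPM in the chloride libraries, with a smaller gap of the same direction. Rpl13 had 1565 and 1888 TPM in the propionate libraries, against 1621, 1542 and 1566 TPM in the chloride libraries, where propionate replicate 3 alone stood above chloride and the change without it was -0.010. The largest negative log2 changes were those of Rpl15, Rpl17, Rpl27a, Rpl38, Rpl41 and Rpl13a. Rpl27a had 459 and 461 TPM in the propionate libraries, against 490.2, 505 and 497 TPM in the chloride libraries, with both propionate values below chloride by a log2 change of -0.11 ± 0.075 (SE) and an adjusted p of 0.497. Rpl13a, which in human myeloid cells can leave the ribosome to silence inflammatory messengers, had 1326 and 1451 TPM in the propionate libraries, against 1459, 1450.5 and 1486 TPM in the chloride libraries, with overlapping groups.

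Further large subunit genes whose groups did not overlap were named for that reason after their values were seen. Rpl22, whose loss is known from mice to impair T cell development, had 240.1 and 257 TPM in the propionate libraries, against 231, 229 and 236 TPM in the chloride libraries, a log2 change of 0.10 ± 0.080 (SE). Rpl34 had 679 and 751 TPM in the propionate libraries, against 657, 649.6 and 665 TPM in the chloride libraries, a log2 change of 0.12 ± 0.081 (SE) that was 0.032 in aligned bases. Rpl27 had 946 and 989.9 TPM in the propionate libraries, against 923, 877 and 906 TPM in the chloride libraries, a log2 change of 0.10 ± 0.076 (SE). In these genes the gap between the lowest propionate and the highest chloride library was small beside the level. Rpl36 and Rpl37 had log2 changes of 0.040 and 0.073, and the adjusted p-values of all 5 genes were between 0.505 and 0.843.

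Rps24 (ENSMUSG00000025290, mm10 chr14:24487125-24496959, plus strand) had the smallest p-value of all members. This small subunit protein takes part in processing of the 18S ribosomal RNA precursor, and its last exons are spliced in more than 1 way. Its level was 1496 and 1127 TPM in the propionate libraries, against 1018, 978 and 927 TPM in the chloride libraries. Both propionate libraries were above chloride, most in propionate replicate 2. The log2 change was 0.41 ± 0.12 (SE), with an unadjusted p of 0.00837 and an adjusted p of 0.134, which does not pass the threshold. Its short reference transcript of 485 bases (ENSMUST00000112384) had 1016 and 419.9 TPM in the propionate libraries, against 288, 371 and 265 TPM in the chloride libraries, with no overlap. A long reference transcript of 1633 bases (ENSMUST00000169826) had 149 and 345 TPM in the propionate libraries, against 293, 249 and 359.8 TPM in the chloride libraries, lowest where the short one was highest. The log2 change in aligned bases, which does not depend on transcript length, was 0.11.

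Rps10 (ENSMUSG00000052146, mm10 chr17:27630418-27636669, minus strand), a protein of the small subunit head, had the next smallest p-value, and its difference kept its size in aligned bases. Its level was 1214 and 1385 TPM in the propionate libraries, against 1146, 1099 and 1023 TPM in the chloride libraries, with both propionate values above every chloride value. The log2 change was 0.25 ± 0.092 (SE), with an unadjusted p of 0.0241 and an adjusted p of 0.217, and it was 0.22 in aligned bases and 0.24 with its named pseudogenes added.

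At the mRNA entry channel, Rps2 (ENSMUSG00000044533, mm10 chr17:24718116-24721929, plus strand) had 1717 and 2521 TPM in the propionate libraries, against 1744, 1730.2 and 1817 TPM in the chloride libraries. Propionate replicate 3 stood far above the rest, while propionate replicate 2 was below every chloride library. The log2 change was 0.24 ± 0.14 (SE) with an adjusted p of 0.446, and it was 0.30 in aligned bases and 0.12 with its named pseudogenes added. It became 0.52 when propionate replicate 2 was left out and -0.039 when propionate replicate 3 was left out. Either leaves 1 propionate library, which is then assumed to vary as the chloride libraries do. The neighbouring Rps3 had 667 and 738 TPM in the propionate libraries, against 695, 668 and 694 TPM in the chloride libraries, with overlapping groups.

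Along the tRNA path, Rps13 had 743 and 774 TPM in the propionate libraries, against 745, 732 and 784 TPM in the chloride libraries, a log2 change of 0.010 ± 0.078 (SE) with overlapping groups. Rps15 had 1494 and 1788 TPM in the propionate libraries, against 1659, 1609 and 1608 TPM in the chloride libraries, a change of 0.0081 ± 0.093 (SE). For Rps15 the 2 propionate libraries lay on either side of the chloride values. Rps6, the substrate of S6 kinase and the usual readout of mTOR activity through its phosphorylation, had 956 and 1062 TPM in the propionate libraries, against 1004, 978 and 1015 TPM in the chloride libraries, a log2 change of 0.012 ± 0.081 (SE). Phosphorylation was not measured.

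Of the other small subunit genes with the largest positive log2 changes, Rps25, which some viral messengers need to start translation, had 1112 and 1083 TPM in the propionate libraries, against 843, 1036 and 1150.4 TPM in the chloride libraries, with chloride replicate 1 lowest and chloride replicate 3 highest. Its assembled transcript of 718 bases was at 0 in chloride replicate 1 and at 622 to 772 TPM in the other 4 libraries. The log2 change of 0.13 in TPM was -0.024 in aligned bases and -0.43 with reference transcripts only. Rps27 had 1359 and 1282 TPM in the propionate libraries, against 1208, 1158 and 1259.9 TPM in the chloride libraries. Both propionate values of Rps27 were above chloride, with a log2 change of 0.13 ± 0.079 (SE) and an adjusted p of 0.460. Rps14, whose loss in humans underlies the anaemia of the 5q- syndrome, had 2334 and 2566 TPM in the propionate libraries, against 2361, 2238 and 2315 TPM in the chloride libraries, and Rps19, the first gene linked to Diamond-Blackfan anaemia, had 892 and 991 TPM in the propionate libraries, against 923, 904 and 912 TPM in the chloride libraries. In both genes propionate replicate 3 was highest and the groups overlapped, with log2 changes of 0.087 and 0.042. Rps16, chosen for its spread after its values were seen, had 107 and 163 TPM in the propionate libraries, against 111, 180.5 and 115 TPM in the chloride libraries, high in 1 library of each group. Rps15a and Rps20 differed by -0.084 and -0.075 in TPM and by 0.10 and 0.071 in aligned bases.

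Several members exchanged TPM between transcripts of different length from library to library. Rpl38 (ENSMUSG00000057322, mm10 chr11:114668524-114672331, plus strand), which mouse embryos need for translation of Hox messengers, had 1111 and 819.7 TPM in the propionate libraries, against 1018, 1021 and 1037 TPM in the chloride libraries. The lower value in propionate replicate 3 went with an assembled transcript of 736 bases that held 355 TPM there and at most 0.017 TPM in every other library. The log2 change of Rpl38 was -0.10 ± 0.12 (SE) in TPM and 0.18 in aligned bases. Rpl41 (ENSMUSG00000093674, mm10 chr10:128548114-128549305, minus strand), the shortest ribosomal protein, had 2097 and 1006 TPM in the propionate libraries, against 1814, 1480.1 and 1349.7 TPM in the chloride libraries. A reference transcript of 716 bases held 2022 and 0 TPM in the propionate libraries, against 1516, 0 and 11.9 TPM in the chloride libraries. An assembled transcript of 984 bases held 62.0 and 849 TPM in propionate, against 249.8, 189 and 1313 TPM in chloride. In aligned bases, which do not depend on transcript length, propionate replicate 2 was still 1.61 times propionate replicate 3 for Rpl41. That ratio was 2.09 in TPM. The cause of the remaining spread was not tested. Over all members, transcripts assembled from the reads held between 3.08% and 6.87% of TPM per library, and 29 of 83 members had at least 1. Over 50% of the TPM of Rps25, Rpl7a, Rpl29, Rpl17 and Rpl21 was on assembled transcripts.

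**Figure D4:**
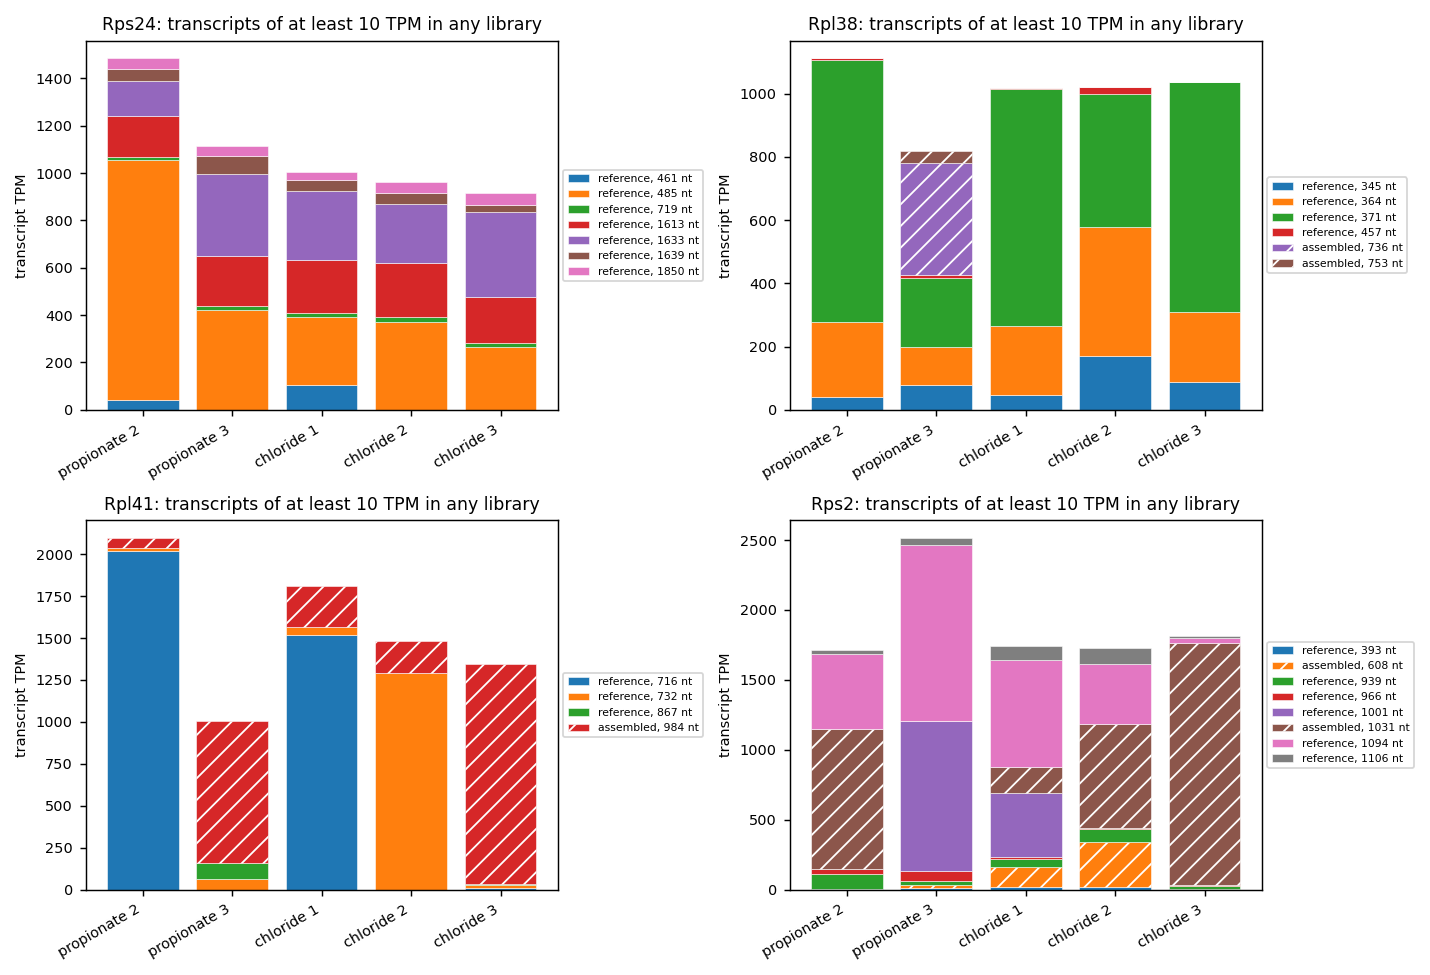
TPM of the transcripts of Rps24, Rpl38, Rpl41 and Rps2 that reach 10 TPM in any library, stacked by library, with lengths in nucleotides and transcripts assembled from the reads hatched. The 485-base transcript of Rps24 is highest in propionate replicate 2, and the dominant transcript of Rpl41 and of Rps2 differs between libraries of 1 group.

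A further group of members shared their level with processed pseudogenes that carry their name. Of the 79 tested members 61 have at least 1 such pseudogene, and for 6 of them (Rpl17, Rpl35a, Rpl21, Rpl7a, Rpl15 and Rps12) under 50% of the summed TPM lay on the member. Rpl30 (ENSMUSG00000058600, mm10 chr15:34440505-34443640, minus strand), chosen for its spread after its values were seen, had 327 and 879 TPM in the propionate libraries, against 311, 807 and 714 TPM in the chloride libraries. Its named pseudogenes had 431 and 93.1 TPM in the propionate libraries, against 469.5, 75.9 and 207 TPM in the chloride libraries, high where the gene was low. Added together they gave 758 and 972 TPM in the propionate libraries, against 780.0, 883 and 921 TPM in the chloride libraries, a spread far smaller than that of the gene. Rps27a (ENSMUSG00000020460, mm10 chr11:29545846-29548109, minus strand), made as a fusion with ubiquitin, had 1236 and 827 TPM in the propionate libraries, against 1326, 759.8 and 1159 TPM in the chloride libraries. The 791-base reference transcript of Rps27a held 971 and 32.1 TPM in propionate, against 1053, 24.1 and 916 TPM in chloride. The named pseudogenes of Rps27a had 129.7 and 355 TPM in the propionate libraries, against 102, 326 and 187 TPM in the chloride libraries. They were again high where the gene was low. Gene and pseudogenes together gave 1366 and 1183 TPM in propionate, against 1428, 1086 and 1346 TPM in chloride. Reads of near-identical copies can be placed on either, and the files do not say how such reads were assigned.

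The member with the largest positive log2 change in TPM, Rpl35a, and those with the largest negative changes, Rpl15 and Rpl17, belonged to this group. Rpl35a (ENSMUSG00000060636, mm10 chr16:33056453-33060189, plus strand), a large subunit protein, had 175 and 175 TPM in the propionate libraries, against 159.6, 145 and 91.0 TPM in the chloride libraries. The 2 propionate values were nearly equal and chloride replicate 3 was lowest, giving a log2 change of 0.45 ± 0.21 (SE) with an adjusted p of 0.330. In aligned bases the change was 0.31 with an adjusted p of 0.117. With its named pseudogenes, which held 812 to 1157 TPM, the change was 0.036. Rpl15 had 221 and 263 TPM in the propionate libraries, against 243, 361 and 254 TPM in the chloride libraries, a log2 change of -0.22 ± 0.17 (SE) that was 0.011 with its pseudogenes. Rpl17, whose reference transcripts were listed at 0 in every library, had 53.1 and 54.5 TPM in the propionate libraries, against 71.1, 69.1 and 49.4 TPM in the chloride libraries, a log2 change of -0.21 ± 0.15 (SE) that was 0.17 with its pseudogenes. With pseudogenes added to every member, 0 members were called, where 1.82% of all tested genes were, and 3 instead of 6 spread over 1.5-fold within a group.

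**Figure D5:**
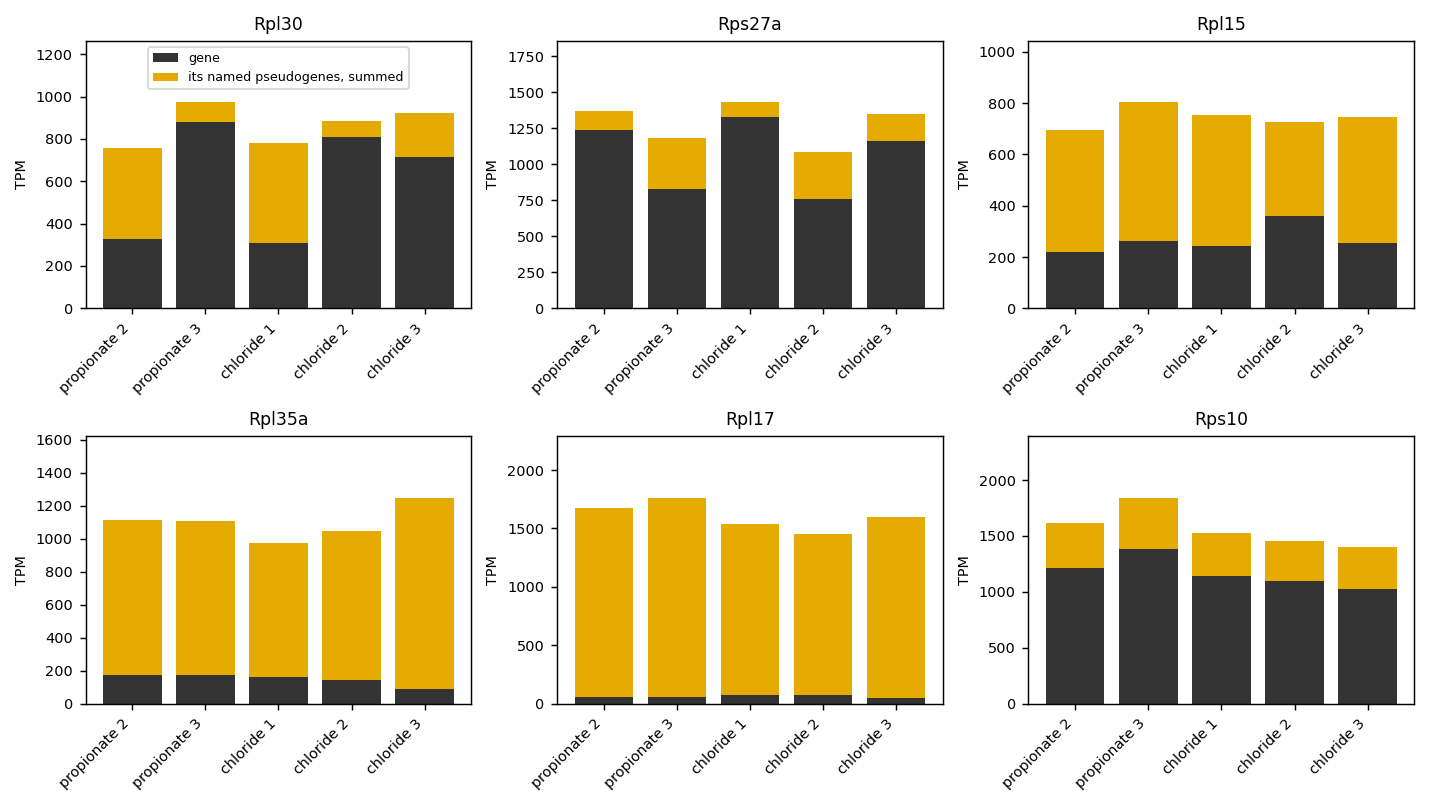
TPM of 6 members (dark) with the summed TPM of their named pseudogenes stacked on top (yellow), by library. For Rpl30 and Rps27a the parts vary in opposite directions, and for Rpl17 and Rpl35a most of the sum lies on the pseudogenes in all 5 libraries.

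Of 5 paralogs of other ribosomal proteins, 1 passed the filter in these cells. Rps27l, a p53 target in human cells, had 136 and 159 TPM in the propionate libraries, against 162, 161 and 159 TPM in the chloride libraries, a log2 change of -0.13 ± 0.094 (SE) with an adjusted p of 0.544. Its partner Rps27 averaged 1254 TPM over the 5 libraries, and Rps27l averaged 155 TPM. Rpl3l, the form of Rpl3 in striated muscle, had 0.335 and 1.45 TPM in the propionate libraries, against 0.563, 0.272 and 0.510 TPM in the chloride libraries, under the filter. Rpl10l, which takes the place of Rpl10 in the testis, was at 0 in 4 libraries and at 0.233 TPM in chloride replicate 3. Rpl39l, also a testis form, and Rps4l, a transcribed processed pseudogene by annotation, were listed at 0 in all 5 libraries. These 4 members were the only ones that did not pass the filter on low values.

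Small nucleolar RNAs guide modification of ribosomal RNA. Members with such a gene annotated inside their span on the same strand numbered 29 (20 large, 9 small) and held 56 such genes. Whether these lie in introns was not checked. The 29 had a median log2 change of 0.014 with 19 of 29 above 0, and the 50 tested members that hold none had a median of 0.049 with 38 of 50 above 0. A chosen list held 12 of the members mutated in Diamond-Blackfan anaemia, a human red cell aplasia, and is not the full set. Of these 12, 10 had a change above 0, with a median of 0.059. In 4 of them (Rps24, Rps10, Rpl11 and Rpl35a) both propionate values were above chloride (33.3%, against 14.8% of all tested genes). Rps24 and Rps10 are the 2 of 12 with an unadjusted p under 0.05, where 7.93% of all tested genes were higher at that p. With 12 genes, nothing particular to the set is read from these shares.

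Genes close to the members in function gave 0 calls, where 1.82% of all tested genes were called in either direction. In lists of 8, 18 and 12 tested genes, 0 calls is near that share. At an unadjusted p under 0.05 there were 0 genes in the first 2 lists below and 2 of 12 regulators (Trp53 and Eif4ebp1, both lower), where 8.9% of all tested genes were lower and 16.8% differed in either direction. Of 8 ribosomal proteins and partners that the name rule does not take, such as Fau and Rack1, 0 were called and the median log2 change was 0.0052. Translation factors and other genes with a terminal oligopyrimidine start had 9 of 18 changes above 0 and 9 below, a median of -0.00034 and 0 calls. Eef1a1, the elongation factor that brings tRNA to the ribosome, had 9469.7 and 11034 TPM in the propionate libraries, against 10298, 10044 and 9989 TPM in the chloride libraries, with propionate replicate 2 lowest and propionate replicate 3 highest. Of 12 tested regulators, 3 had a change above 0, with a median of -0.097 and 0 calls, and in 6 of 12 both propionate values were below chloride, where 19.7% of all tested genes were. Trp53, which encodes p53, had 8.07 and 9.37 TPM in the propionate libraries, against 12.3, 11.8 and 9.59 TPM in the chloride libraries, a log2 change of -0.33 ± 0.13 (SE) with an unadjusted p of 0.0403 and an adjusted p of 0.270. Mdm2 had 39.4 and 47.6 TPM in the propionate libraries, against 52.5, 53.7 and 48.9 TPM in the chloride libraries, a log2 change of -0.25 ± 0.11 (SE) with an adjusted p of 0.298. Eif4ebp1, the translation repressor that mTOR inactivates, had 15.0 and 16.4 TPM in the propionate libraries, against 19.4, 19.4 and 17.6 TPM in the chloride libraries, a log2 change of -0.24 ± 0.10 (SE) with an adjusted p of 0.283.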

How the data were processed

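Total RNA libraries were made with a stranded kit, per the labels. Tools named in the submitters' processing notes are bcl2fastq, fastp, HISAT2 and StringTie, with the build mm10. Per the file headers, StringTie 2.1.1 estimated TPM, FPKM and coverage for the transcripts of 1 merged annotation, with no strand option. The transcripts carry a strand, but reads of antisense and overlapping genes may not be fully told apart. The deposited files used here hold TPM, FPKM and coverage, so no count test was run. TPM falls for all other genes where small RNAs take a larger share.

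Gene TPM was summed over reference transcripts (GENCODE M21) and over assembled transcripts overlapping the gene most on its strand. A two-sided test on log2(TPM + 1), with group as the only term, used lmFit and eBayes (trend) of limma 3.58.1, run under R 4.3.3, on 2 propionate against 3 chloride libraries. In an exact permutation test of 1 gene, 2 against 3 libraries cannot give p under 0.1. Aligned bases are coverage times transcript length, and this setting and the sums with named pseudogenes were chosen after seeing the data. The scripts were tested on simulated data.

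Members and lists were chosen with earlier results of these data known. Named members are the 6 largest increases and 6 largest decreases per subunit, the 3 most and 3 least abundant, the paralogs with their partners, members under the filter and members of lists by role. Others are said to be chosen by their values, and Rps6 and Rps14 were named outside these rules. A few genes are counted but not reported by name here.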

Additional observations from a re-analysis of the deposited data

How the results depend on the processing

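The count of 0 members called higher became 1 with aligned bases and a replicate block (Rpl35a, 0.38, adjusted p = 0.0396) and 0 to 1 with 1 library left out in turn (Rps2 without propionate replicate 2); 0 were lower under every alternative run. The median change of members was 0.062 with median-of-ratios scaling (large 0.069, small 0.057), and -0.012 to 0.10 with 1 library left out (large -0.0044 to 0.11, small -0.019 to 0.093). Large minus small was 0.025 with reference transcripts only, 0.039 with the replicate block, 0.0034 in aligned bases, and -0.0037 to 0.039 with 1 library left out. Over all genes, calls higher and lower numbered 2 and 1 with no minimum, 337 and 182 when TPM was rescaled to protein-coding genes, 370 and 157 under median-of-ratios size factors, 5 and 6 with reference transcripts only, 498 and 294 in aligned bases, 396 and 222 in aligned bases with the block, 8 to 127 and 7 to 46 with 1 library left out; lower calls were 106 in FPKM and 107 with the replicate block.

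Of 462 values of 29 named genes under the alternatives, 42 reversed. With pseudogenes added, Rpl15 was 0.011 and Rpl17 0.17. In aligned bases without and with the block, Rpl38 was 0.18 and 0.16, Rps15a 0.10 and 0.093, Rps20 0.071 and 0.051, Rps25 -0.024 and -0.029, and Rpl21 -0.012 and -0.052. With reference transcripts only, Rpl41 was 0.46, Rps15a 0.0090 and Rps25 -0.43. With the replicate block, Rpl41 was 0.039, Rps27a 0.11 (0.071 in aligned bases) and Rpl32l 0.030 (0.010 in aligned bases). Rpl32l was 0.011 with median-of-ratios scaling. Rpl3, at 1.3e-06, was -1.3e-07 with a pseudocount of 0.1, -0.00019 in FPKM, -0.0050 and -0.020 in aligned bases without and with the block, and -0.0022 with pseudogenes. With 1 library left out, reversals gave ranges of -0.16 to 0.055 (Rpl10), -0.010 to 0.26 (Rpl13), -0.082 to 0.082 (Rpl3), -0.20 to 0.19 (Rpl32l), -0.32 to 0.12 (Rpl38), -0.61 to 0.45 (Rpl41), -0.039 to 0.52 (Rps2), -0.14 to 0.025 (Rps20) and -0.35 to 0.23 (Rps27a). The causes were not tested. Replicate numbers are shared by 2 pairs of libraries, whose deviations correlated at -0.22 and -0.19 over genes, so the numbers show no pairing; chloride replicate 1 has no partner and drops out of the block. The median SE of 0.083 limits what was detectable.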
